A study of Homo sapiens with 15 samples.

Results

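Described here are 7 genes that mark monocytes and macrophages, MPEG1, LYZ, CSF1R, CD86, IRF8, CD36 and CD14, of 14812 named genes on the array. Each was taken by its symbol in the platform annotation, as the feature of highest mean over the 15 arrays where more than 1 feature carried the symbol. The cells were MV4-11, an established human acute myeloid leukemia line with a KMT2A-AFF1 fusion and an internal tandem duplication of FLT3. The 5 groups of 3 arrays each were OTX015 at 300 nM, DW71177 at 300 nM, DW71374 at 300 nM, RVX208 at 5 uM and the vehicle DMSO, all for 24 h. BET proteins read acetylated lysine on chromatin through a pair of bromodomains. OTX015 (birabresib) occupies both, and RVX208 (apabetalone) prefers the second. DW71177 and DW71374 are known here by code name. The labels describe triplicate wells of a single line and do not say that these were separate cultures, so the spread between arrays may be technical.

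Blood monocytes arise from myeloid progenitors under transcription factors such as PU.1 and IRF8, and they depend on the receptor CSF1R for survival and for maturation into macrophages. Mature cells sense lipopolysaccharide through CD14, take up lipids and debris through CD36, kill microbes with lysozyme and perforin-2, and show CD86 to T cells. Leukemias with a KMT2A fusion often keep part of this program.

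Values are the log2 signals that were deposited, and differences are between group means on that scale. Array medians over all features lay between 3.72 and 3.79, and arrays of the same group had correlations of 0.992 to 0.995 over all genes. Of 11 markers fixed for a myeloid line, 7 were measured. FLT3 averaged 9.80, SPI1 7.66, MEIS1 6.78, CD4 6.76 and CSF3R 6.23 in DMSO arrays. LYZ and IRF8 were also bright, whereas CD14, the marker most often used to define monocytes, did not exceed 3.39 in any array. CD36 did not exceed 3.83. No background level was given with the values, so the true fold of a gene may exceed the measured one where the mean of its lower group was under 5. In a bulk culture, fewer cells that express a gene and less RNA per cell cannot be told apart.

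Against DMSO, OTX015 lowered 5 of the 7 genes and raised 1 by limma at an adjusted p under 0.05, where 14.5% of all genes tested were lower and 11.2% higher. With DW71177 the counts were also 5 lower and 1 higher, against 9.88% and 9.95% of all genes. RVX208 lowered 3 and raised 1, against 3.11% and 3.41% of all genes. Calls were commoner when only the 7102 genes with a group mean of at least 5 were tested. There 54.9% were called with OTX015, 47.1% with DW71177 and 22.6% with RVX208, in either direction. With DW71374 limma called 0 of the 7 genes and 0% of all genes. Limma's unadjusted p was under 0.05 for 686 of the 14812 genes in that comparison, among them CD86 alone of the 7. The median difference of the 7 genes was -1.01 with OTX015, -1.06 with DW71177, 0.04 with DW71374 and -0.29 with RVX208, and the median over all genes lay between -0.01 and 0.00 in each. The genes had been chosen with earlier results of these data known, so these counts describe them and test nothing about the group.

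**Figure D1:**
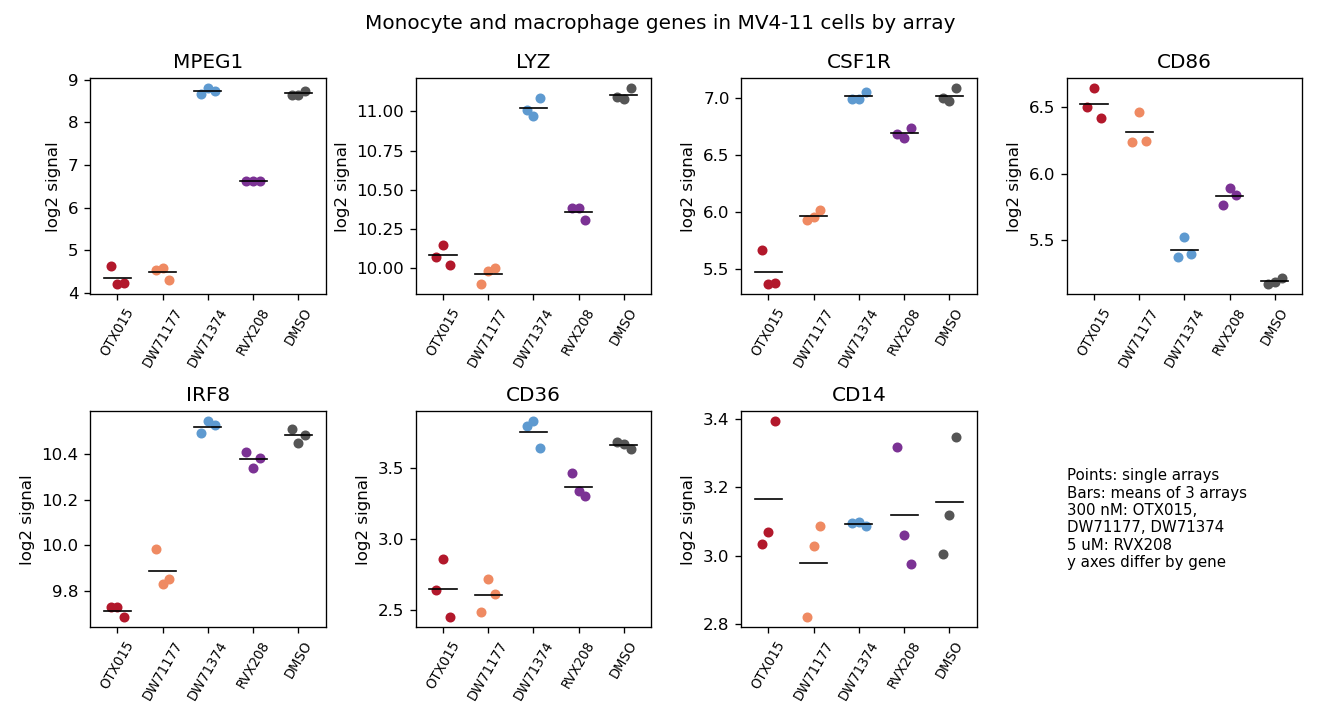
Log2 signal (y axis, scaled separately for each gene) of the 7 genes in each of the 15 arrays, by group (x axis), with points for arrays and bars for means of 3 arrays. CD86 was higher and 5 genes were lower with OTX015 and DW71177, the DW71374 arrays lay close to the DMSO arrays, and the CD14 values stayed between 2.82 and 3.39 in every group.

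MPEG1, which encodes the pore-forming macrophage protein perforin-2, had the largest difference of the 7. Its log2 signal was 4.63, 4.20 and 4.22 in the OTX015 arrays, 4.53, 4.59 and 4.31 with DW71177, 8.66, 8.80 and 8.73 with DW71374, 6.62 in all 3 RVX208 arrays, and 8.65, 8.65 and 8.75 with DMSO. The OTX015 and DW71177 arrays overlapped each other, these and the RVX208 arrays lay below every DMSO array, and the DW71374 arrays overlapped the DMSO arrays. MPEG1 fell by 4.33 on the log2 scale with OTX015 (SE 0.10, n = 3 and 3, limma adjusted p = 6.2e-12), or 20.1-fold, and by 4.20 with DW71177 (SE 0.10, limma adjusted p = 1.4e-11), or 18.4-fold. In both of these comparisons it ranked first of the 14812 genes by the size of its fall. The low groups averaged 4.35 and 4.48, under 5, so both folds may be understated. With RVX208 it fell by 2.06 (limma adjusted p = 1.1e-07), or 4.18-fold. The 3 RVX208 arrays carried an identical deposited value, which was so for 59 genes in that group, so the error of this difference comes from the other groups and from limma's shared variance.

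LYZ encodes lysozyme, which digests bacterial cell walls and is among the most abundant secreted proteins of monocytes. The brighter of its 2 features read 10.07, 10.15 and 10.02 with OTX015, 9.90, 9.98 and 10.00 with DW71177, 11.01, 10.97 and 11.09 with DW71374, 10.39, 10.39 and 10.31 with RVX208, and 11.09, 11.08 and 11.15 with DMSO. The DW71177 arrays lay just below the OTX015 arrays without overlap, and the arrays of both and of RVX208 lay below every DMSO array. LYZ fell 2.03-fold with OTX015 (log2 -1.02 ± 0.06, SE of the fit as in all such values, limma adjusted p = 2.9e-08), 2.21-fold with DW71177 (-1.15 ± 0.06, 2e-08) and 1.68-fold with RVX208 (-0.75 ± 0.06, 1e-05). The second feature averaged 8.32 with OTX015 and 9.75 with DMSO. Its differences from DMSO were -1.44 for OTX015, -1.56 for DW71177 and -0.89 for RVX208, each larger in size than that of the first feature. With DW71374 the features differed from DMSO in opposite directions, by -0.08 and 0.11.

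CSF1R is the receptor for the cytokines CSF1 and IL34. The RefSeq promoter table (GRCh38.p14) holds windows from 250 bases before to 50 bases after a start site for 5 of the 7 genes. MPEG1 and LYZ are not in it. CSF1R has 2 windows there, and the downstream one, on the minus strand of chromosome 5, is printed because it holds the letters of the PU.1 core motif, GAGGAA, in capitals:
CSF1R, chr5:150086505-150086804: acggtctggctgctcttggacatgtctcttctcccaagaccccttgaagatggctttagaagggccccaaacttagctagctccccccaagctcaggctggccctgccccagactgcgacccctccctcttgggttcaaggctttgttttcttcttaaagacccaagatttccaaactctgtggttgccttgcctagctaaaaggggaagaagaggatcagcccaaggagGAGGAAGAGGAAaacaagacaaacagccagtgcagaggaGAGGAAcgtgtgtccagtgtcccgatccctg
The 3 matches begin at -20, -14 and 20, counted from the start site as 1, and the first and second abut. The upstream window of CSF1R holds none.

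The CSF1R signal was 5.66, 5.36 and 5.37 with OTX015, 5.92, 5.96 and 6.02 with DW71177, 6.99, 6.99 and 7.06 with DW71374, 6.68, 6.65 and 6.74 with RVX208, and 7.0, 6.97 and 7.09 with DMSO. The OTX015 arrays lay below all DW71177 arrays, the arrays of both and of RVX208 lay below every DMSO array, and the DW71374 arrays overlapped the DMSO arrays. CSF1R fell 2.93-fold with OTX015 (log2 -1.55 ± 0.08, limma adjusted p = 7.1e-09) and 2.08-fold with DW71177 (-1.06 ± 0.08, 5.6e-07). With RVX208 it fell 1.26-fold (-0.33 ± 0.08, limma adjusted p = 0.019). That last call was lost without RVX208 replicate 1 (adjusted p = 0.06) or 2 (0.071) and without DMSO replicate 1 (0.051) or 3 (0.078), at differences of -0.33, -0.31, -0.34 and -0.30.

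IRF8 is a transcription factor that directs progenitors towards monocytes and dendritic cells. It had a signal of 9.73, 9.73 and 9.68 with OTX015, 9.98, 9.83 and 9.85 with DW71177, 10.49, 10.54 and 10.53 with DW71374, 10.41, 10.34 and 10.38 with RVX208, and 10.51, 10.45 and 10.48 with DMSO. The spread within each group was small, and all OTX015 arrays lay below all DW71177 arrays. IRF8 fell 1.70-fold with OTX015 (log2 -0.77 ± 0.05, limma adjusted p = 2.4e-07) and 1.51-fold with DW71177 (-0.59 ± 0.05, 4.5e-06). The RVX208 arrays lay just below the DMSO arrays, but the difference of -0.10 ± 0.05 was not called (limma adjusted p = 0.32). Neither of the 2 IRF8 windows in the promoter table holds GAGGAA.

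CD36, a scavenger receptor for oxidised lipoproteins and a carrier of fatty acids, was dim throughout. Its signal was 2.64, 2.86 and 2.45 with OTX015, 2.48, 2.72 and 2.61 with DW71177, 3.80, 3.83 and 3.64 with DW71374, 3.46, 3.33 and 3.30 with RVX208, and 3.68, 3.67 and 3.64 with DMSO. The OTX015 and DW71177 arrays overlapped each other and lay below every DW71374 and DMSO array. CD36 fell 2.02-fold with OTX015 (log2 -1.01 ± 0.10, limma adjusted p = 2.9e-06) and 2.09-fold with DW71177 (-1.06 ± 0.10, 4.2e-06). Its difference with RVX208 was -0.29 ± 0.10 and was not called (limma adjusted p = 0.093). The arrays of these groups did not overlap, but how often that held over all genes was not counted. All of its group means lay under 4, so these folds may be understated.

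CD86, which engages CD28 and CTLA4 on T cells, was the single gene of the 7 that rose. Of its 2 promoter windows the upstream one, on the plus strand of chromosome 3, is printed for comparison with CSF1R, again with GAGGAA or its reverse complement in capitals:
CD86, chr3:122055112-122055411: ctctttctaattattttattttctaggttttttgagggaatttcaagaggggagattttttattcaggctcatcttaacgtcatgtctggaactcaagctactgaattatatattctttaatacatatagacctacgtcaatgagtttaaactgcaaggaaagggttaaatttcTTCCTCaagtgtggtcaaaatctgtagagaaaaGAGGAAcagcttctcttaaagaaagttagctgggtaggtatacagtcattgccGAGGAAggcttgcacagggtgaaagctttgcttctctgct
The window holds 3 matches, at -76, -43 and 11, the same number as in the CSF1R window. The CD86 signal was 6.50, 6.64 and 6.42 with OTX015, 6.24, 6.46 and 6.25 with DW71177, 5.37, 5.52 and 5.39 with DW71374, 5.77, 5.89 and 5.84 with RVX208, and 5.17, 5.19 and 5.22 with DMSO. All 12 arrays with a compound were above the DMSO arrays, and the OTX015 and DW71177 arrays overlapped each other.

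CD86 rose 2.51-fold with OTX015 (log2 1.33 ± 0.08, limma adjusted p = 3.3e-08), 2.18-fold with DW71177 (1.13 ± 0.08, 3.8e-07) and 1.56-fold with RVX208 (0.64 ± 0.08, 0.00025). With DW71374 the difference was 0.24 ± 0.08 (95% interval 0.07 to 0.41). Its unadjusted p was 0.008 and its limma adjusted p 0.97, in a comparison where 0 genes were called.

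CD14, the lipopolysaccharide co-receptor, lay between 2.82 and 3.39 in all 15 arrays. Its values were 3.03, 3.07 and 3.39 with OTX015, 2.82, 3.03 and 3.09 with DW71177, 3.10, 3.10 and 3.09 with DW71374, 3.32, 3.06 and 2.98 with RVX208, and 3.0, 3.12 and 3.35 with DMSO. Every compound group overlapped the DMSO group. The differences from DMSO were 0.01 with OTX015 (95% interval -0.25 to 0.26), -0.18 with DW71177 (-0.43 to 0.08), -0.06 with DW71374 (-0.32 to 0.19) and -0.04 with RVX208 (-0.29 to 0.22), and none passed the test (limma adjusted p = 0.98, 0.37, 0.99 and 0.91). The intervals hold for the measured signal, and at so dim a signal they do not bound the true fold. The CD14 window on the minus strand of chromosome 5 holds 1 match, at -96, and is shown as the window of a gene with no called difference:
CD14, chr5:140633126-140633425: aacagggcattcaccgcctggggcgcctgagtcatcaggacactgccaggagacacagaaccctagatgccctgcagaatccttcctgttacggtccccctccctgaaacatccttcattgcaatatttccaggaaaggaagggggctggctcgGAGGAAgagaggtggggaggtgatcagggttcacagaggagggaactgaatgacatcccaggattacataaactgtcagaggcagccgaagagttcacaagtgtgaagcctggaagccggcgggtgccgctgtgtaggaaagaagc

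Over the 5 genes in the promoter table there were 13 windows, since a gene has a window for each start site, and 7 of them held GAGGAA on either strand. For CD36 this was 4 of 6 windows, but a pair of these overlap and hold the same match, so the 4 windows carry 3 distinct sites. The count of 7 windows therefore includes 1 repeated site. These letters occurred in 27.9% of all 35116 windows of this length. The C/EBP letters TTGCNNAA, the IRF element (GAAA and GAAA around 2 free bases) and the E-box CACGTG, searched on both strands, were in 0 of the 13 windows, against 10.5%, 3.57% and 7.26% of all windows. A match or its absence describes the letters of these windows and not binding by a factor.

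**Figure D2:**
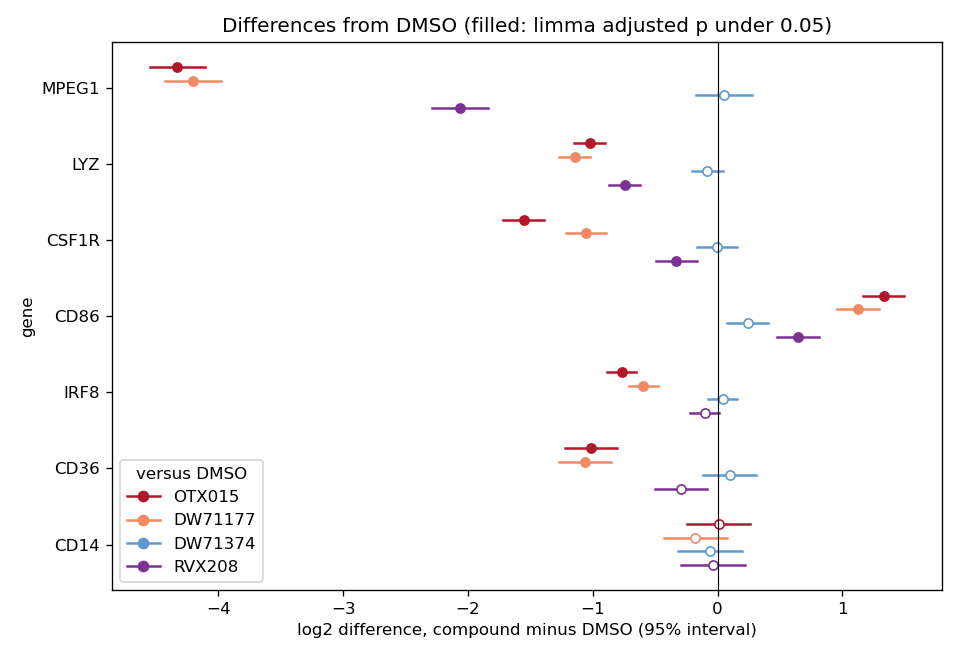
Log2 difference from DMSO (x axis) with its 95% interval for the 7 genes (y axis) under each compound, filled where limma's adjusted p was under 0.05. MPEG1 stands far to the left at -4.33 with OTX015 and -4.20 with DW71177, the filled points right of 0 are those of CD86, and all DW71374 points are open.

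DW71177 and OTX015 were compared at their shared dose and time. The 5.97 of CSF1R with DW71177, against 5.47 with OTX015, was a 1.41-fold higher signal (difference 0.50 ± 0.08, 95% interval 0.34 to 0.66, limma adjusted p = 0.008). That made 1 of the 7 genes called higher and 0 lower, against 1.07% and 0.182% of all genes tested (1.26% in either direction). From these 6 arrays alone the CSF1R call was lost (adjusted p = 0.28), in a fit that called 1 of the 14812 genes. The count of 186 genes called over the array fell to between 71 and 106 without DW71177 replicate 1, 2 or 3 or without OTX015 replicate 1 or 3, and CSF1R was still called in each.

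The other 6 genes did not pass the test between these compounds. IRF8 was nearest, at 0.18 ± 0.05 (interval 0.06 to 0.29, limma adjusted p = 0.15), with the groups not overlapping. It passed with limma's trended and robust variance (adjusted p = 0.0088) and among genes with a group mean of at least 5 (0.039). These settings called 3.36% and 8.35% of the genes tested, against 1.26% in the main fit. MPEG1 differed by 0.13 (interval -0.09 to 0.35), LYZ by -0.12 (-0.25 to 0.00), CD86 by -0.20 (-0.37 to -0.04), CD36 by -0.05 (-0.26 to 0.16) and CD14 by -0.19 (-0.44 to 0.07). These intervals exclude a 2-fold difference in either direction for the measured signals, but MPEG1, CD36 and CD14 were under 5 in both groups.

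**Figure D3:**
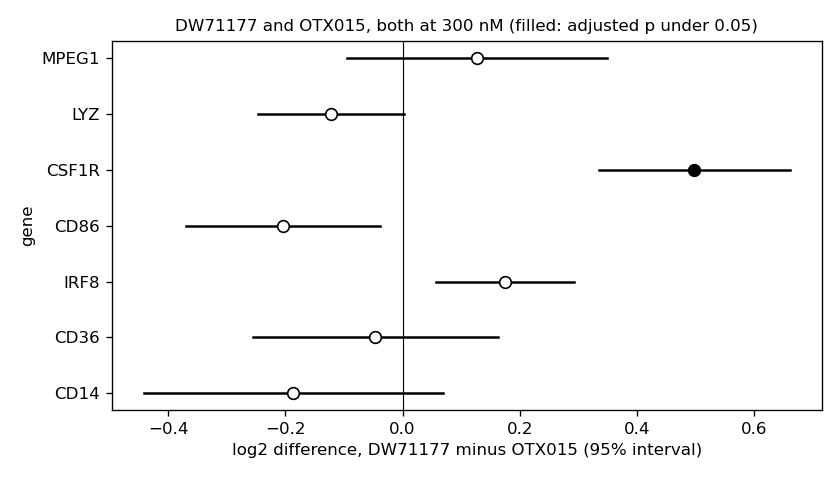
Log2 difference of DW71177 minus OTX015, both at 300 nM (x axis), with its 95% interval for each of the 7 genes (y axis). CSF1R, at 0.50, is the single filled point, and the intervals of MPEG1, LYZ, CD36 and CD14 cross 0.

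DW71374 at the same dose was set against each of these compounds as well. Compared with OTX015, 5 of the 7 genes were higher with DW71374 and CD86 was lower, against 14% and 11.1% of all genes (25.2% either way). MPEG1 was higher by 4.38 (limma adjusted p = 5.5e-12), CSF1R by 1.55, CD36 by 1.11, LYZ by 0.94 and IRF8 by 0.81, and CD86 was lower, at -1.09. Compared with DW71177 the same counts were 5 and 1, against 9.51% and 9.98% of all genes (19.5% either way). MPEG1 was higher by 4.26 (limma adjusted p = 1.2e-11), CD36 by 1.16, LYZ by 1.06, CSF1R by 1.05 and IRF8 by 0.63, while CD86 was lower, at -0.89. These comparisons share arrays with those against DMSO. RVX208 was used at 5 uM, so its values stand beside those of the 300 nM compounds with no test between them.

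Across the 15 arrays MPEG1, LYZ, CSF1R, IRF8 and CD36 varied together, with Pearson's r between 0.86 and 0.98 in their 10 pairs. CD86 ran the other way, at -0.97 to -0.91 against these 5. CD14 correlated with the other 6 genes at -0.16 to 0.21. The points share 5 groups, so these values restate the group differences. By levels at 300 nM, OTX015 was the lowest group for MPEG1, CSF1R and IRF8, and DW71177 for LYZ and CD36. The arrays of these groups overlapped for MPEG1 and CD36 and did not for LYZ, CSF1R and IRF8. Of these genes limma called CSF1R alone between the compounds (adjusted p = 0.008, against 0.38 for LYZ and 0.15 for IRF8). The share of all genes without overlap was not counted.

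The genes whose pattern was most like that of each member were sought among 3597 or 3598 other genes that were called in some comparison with DMSO and had a group mean of at least 5. For MPEG1 these were ENPP2, a secreted phospholipase, TRAP1, a mitochondrial chaperone, and TNPO2, a nuclear import receptor, at r = 0.998, 0.997 and 0.994. ENPP2 differed from DMSO by -2.80 with OTX015, -2.60 with DW71177, 0.02 with DW71374 and -1.42 with RVX208. For LYZ they were the chemokine receptor gene CCR6, the IgM receptor gene FCMR and PSAT1 of serine synthesis, each at 0.985. Like LYZ, these 3 genes had mean differences about as large with DW71177 as with OTX015, such as -1.37 and -1.35 for CCR6.

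The pattern of CSF1R was most like those of RUVBL1, BUB1 and DNPH1 (r = 0.991, 0.989 and 0.989). For IRF8 the nearest was MYC, at 0.991, followed by TMEM109 and SCIMP at 0.989 each. The differences of MYC from DMSO were -1.42 for OTX015, -1.16 for DW71177 and -0.32 for RVX208. CD36 was nearest to GPR183, a receptor for oxysterols, at 0.976, then ARSB and ZNF121 at 0.975 and 0.971. PCNX1, ZYG11B and WDR47 were nearest to CD86, at 0.992, 0.987 and 0.987, and ZYG11B exceeded its DMSO level by 1.75 in OTX015 arrays, 1.52 in DW71177 arrays and 0.85 in RVX208 arrays. The correlations are over 15 arrays in 5 groups and carry no test.

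Around these genes, 7 lists named genes of the pathways they belong to, with 80 measured genes and none of the 7. Each list was measured only in part. In the CD86 list 4 of 16 genes were measured, with no MHC class II gene among them. OTX015 lowered 18 of the 80 and raised 7, which is 31.3% called, against 25.7% of all genes. With DW71177 15 were lower and 8 higher, 28.8% against 19.8%. RVX208 lowered 8 and raised 3, 13.8% against 6.52%, and with DW71374 0 of 80 were called. The median difference was -0.02 with OTX015, -0.05 with DW71177 and -0.01 with RVX208. Most of the 80 genes passed no test with OTX015, and the called ones went both ways.

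**Figure D4:**
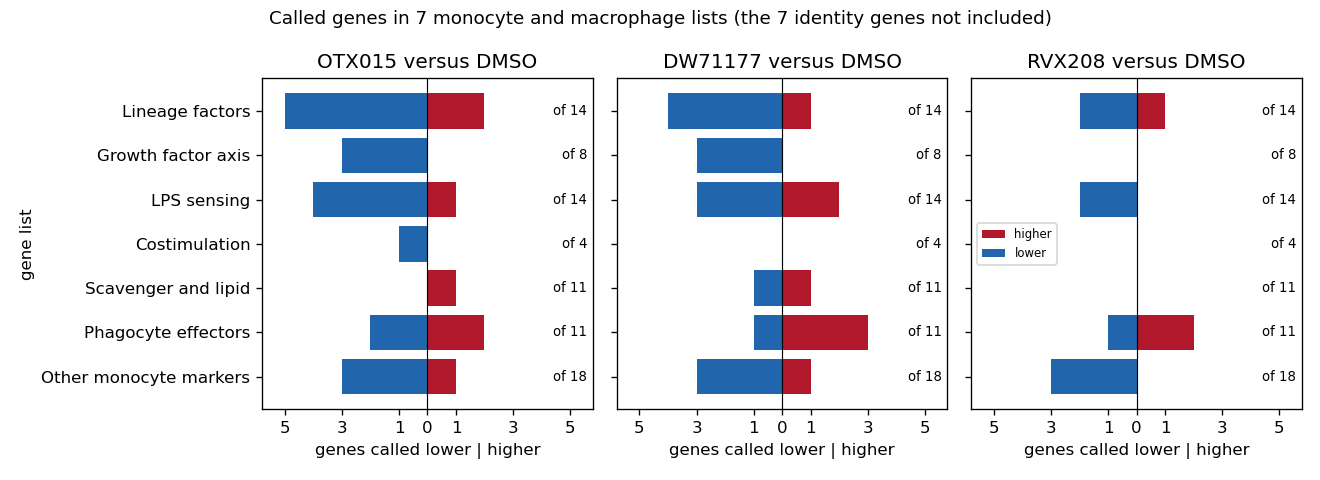
Number of genes called lower (left of 0) and higher (right of 0) than DMSO by limma in 7 lists of monocyte and macrophage genes (y axis), with the number measured at the right of each row. The lineage factors had 5 lower and 2 higher with OTX015, and the growth factor list had 0 called with RVX208.

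Transcription factors of the lineage moved in both directions. Of 14 measured, 5 fell and 2 rose with OTX015, 4 and 1 with DW71177, and 2 and 1 with RVX208 (list medians 0.08, 0.03 and -0.01). These made 50%, 35.7% and 21.4% called, against 25.7%, 19.8% and 6.52% of all genes. IRF4, a relative of IRF8 that acts in dendritic cells and lymphocytes, averaged 7.18 with OTX015 and 8.23 with DMSO, a fall of 2.07-fold (limma adjusted p = 1.3e-07), and it fell 1.71-fold with DW71177. IRF5, which drives inflammatory cytokines in macrophages, fell 1.89-fold with OTX015 and 1.55-fold with DW71177. TCF4, a factor of plasmacytoid dendritic cells, fell 1.71-fold with OTX015, 1.68-fold with DW71177 and 1.55-fold with RVX208. IRF7, the interferon regulator, rose instead, by 1.79-fold, 1.70-fold and 1.44-fold with OTX015, DW71177 and RVX208. SPI1, the gene of PU.1, was named after its values were seen. It differed from DMSO by -0.22 with OTX015 (limma adjusted p = 0.012), -0.15 with DW71177 (0.11) and -0.01 with RVX208 (0.94).

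On the growth factor axis of CSF1R, 3 of 8 measured ligands and receptors fell with OTX015 and 3 with DW71177, with 0 higher. RVX208 changed 0 of the 8 in limma. Called were 37.5% with OTX015, 37.5% with DW71177 and 0% with RVX208, against 25.7%, 19.8% and 6.52% of all genes. KIT, the stem cell factor receptor, averaged 4.24 with OTX015 and 5.51 with DMSO and fell 2.41-fold (limma adjusted p = 2.7e-06). It fell 2.15-fold with DW71177. FLT3LG, the FLT3 ligand gene, fell 1.39-fold with OTX015 and 1.46-fold with DW71177. CSF3R, the granulocyte growth factor receptor, fell 1.20-fold with OTX015 and 1.22-fold with DW71177. The ligands of CSF1R were dim and did not pass the test. CSF1 differed by 0.05 with OTX015 and -0.04 with DW71177, and IL34 by 0.34 and 0.06.

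Around CD14, 4 of 14 genes of lipopolysaccharide sensing fell and 1 rose with OTX015, 3 fell and 2 rose with DW71177, and 2 fell with RVX208 (list medians -0.09, -0.07 and 0.03). The shares called were 35.7%, 35.7% and 14.3%, against 25.7%, 19.8% and 6.52% of all genes. CD180, a receptor related to TLR4, fell 2.33-fold with OTX015 (9.45 against 10.67 with DMSO, limma adjusted p = 2.3e-09) and 1.49-fold with DW71177. IRAK1, a kinase below these receptors, fell 1.96-fold, 1.84-fold and 1.40-fold with OTX015, DW71177 and RVX208. LY86, the partner of CD180, fell 1.30-fold with OTX015. TLR2 fell 1.29-fold with OTX015, 1.26-fold with DW71177 and 1.36-fold with RVX208. LY96, the co-receptor of TLR4, rose 1.41-fold with OTX015 from a dim signal, 3.02 against 2.52 with DMSO. With DW71177 it rose 1.67-fold, to 3.26.

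Beside CD86, 4 ligands of costimulatory or coinhibitory receptors were measured, and 3 of them, CD80, CD274 and PDCD1LG2, were dim, with means under 4 in OTX015, DW71177 and DMSO arrays. ICOSLG, the ligand of ICOS, fell 1.14-fold with OTX015 (limma adjusted p = 0.036), and 0 of 4 changed with DW71177 or RVX208 in limma. Its call made 25% of the 4 with OTX015, against 25.7% of all genes. CD80, the other ligand of CD28, differed by 0.04 with OTX015 and 0.00 with DW71177. Beside CD36, 11 scavenger receptor and lipid genes were measured. CD68, a lysosomal glycoprotein of macrophages, rose 1.41-fold with OTX015 (10.44 against 9.94 with DMSO, limma adjusted p = 4.1e-05) and 1.30-fold with DW71177. FABP5, a fatty acid carrier, fell 1.81-fold with DW71177 (limma adjusted p = 0.0086). No other gene of this list passed the test with either compound, and 0 of 11 did with RVX208. Thus 9.09% were called with OTX015 and 18.2% with DW71177, against 25.7% and 19.8% of all genes.

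Phagocyte effectors also split. Of 11 measured, 2 rose and 2 fell with OTX015, 3 rose and 1 fell with DW71177, and 2 rose and 1 fell with RVX208. These were 36.4%, 36.4% and 27.3% called, against 25.7%, 19.8% and 6.52% of all genes. CHI3L1, a secreted chitinase-like protein of macrophages, fell 2.81-fold with OTX015 (8.31 against 9.80 with DMSO, limma adjusted p = 1.8e-09), 2.57-fold with DW71177 and 1.93-fold with RVX208. The lysosomal protease gene CTSB rose 1.81-fold, 1.68-fold and 1.39-fold, and CTSD rose 1.35-fold with OTX015 and 1.36-fold with DW71177. PRF1, which encodes the lymphocyte pore protein related to MPEG1, was dim and fell 1.27-fold with OTX015 (limma adjusted p = 0.034).

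Among 18 other monocyte and macrophage markers, 3 fell and 1 rose with OTX015, 3 fell and 1 rose with DW71177, and 3 fell with RVX208. With OTX015 the share called, 22.2%, was below the 25.7% of all genes. It was 22.2% against 19.8% with DW71177 and 16.7% against 6.52% with RVX208. The chemokine receptor gene CCR2, a marker of classical monocytes, fell 15.4-fold with OTX015 (4.32 against 8.26 with DMSO, limma adjusted p = 6.4e-12), 12.5-fold with DW71177 and 4.52-fold with RVX208. CCR1 fell 3.40-fold, 2.59-fold and 1.44-fold. THBD, thrombomodulin, fell 3.43-fold with OTX015, 2.83-fold with DW71177 and 1.70-fold with RVX208. SIRPA, an inhibitory receptor of myeloid cells, rose 1.14-fold with OTX015 (limma adjusted p = 0.049) and 1.17-fold with DW71177 (0.023). The remaining 14 genes passed no test with OTX015. They included the bright adapter gene TYROBP, which differed by -0.03, and S100A9 and FCN1, at 0.02 and 0.11.

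Lists of other lineages were also read. Of the lymphoid list 1 of 8 genes was called with OTX015 (12.5%, against 25.7% of all genes), 2 of 8 with DW71177 (25%, against 19.8%) and 1 of 8 with RVX208 (12.5%, against 6.52%). NKG7, a granule protein of cytotoxic cells, fell with OTX015 (6.26 against 7.46 with DMSO), DW71177 and RVX208, and CD2 fell with DW71177. With OTX015, PF4 fell 1.27-fold as 1 of 6 erythroid and megakaryocytic markers, and VIM rose 1.12-fold as 1 of 6 epithelial and stromal markers. Each was the only call of its list, 16.7% against 25.7% of all genes. Averaged over its 8 genes, the lymphoid list lay between 4.66 and 4.76 in OTX015 arrays, 4.62 and 4.81 in DW71177 arrays, 4.73 and 4.79 in RVX208 arrays and 4.80 and 4.90 in DMSO arrays. EPCAM and DCN averaged at most 2.81 and 1.80 in any group, whereas KRT18 averaged 7.65 to 7.80. The part of these markers in the changes of the 7 genes was not tested.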

How the data were processed

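RNA from 15 wells was measured on an Affymetrix whole-transcript array. The deposited values are log2 signals, a scale inferred from the values. The arrays had near-equal medians (3.72 to 3.79), and any normalization between arrays would have removed a change shared by all genes. The normalization method is not given in the sources used here. Of 44629 features 15835 named 1 gene, and the feature of highest mean per symbol left 14812 genes. Limma 3.58.1 in R 4.3.3 (lmFit, eBayes) was fitted to 5 group means over 15 arrays with 10 residual degrees of freedom. Two-sided p-values were adjusted by Benjamini-Hochberg over all genes. With 3 arrays a group an exact permutation test cannot go below 0.1. The fit was tested on simulated data. Arrays give no counting depth, and their number limits the precision.

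The 7 genes and 11 gene lists were chosen with earlier results of these data known. Named list genes were up to 4 called genes of smallest p with OTX015 and 2 each with DW71177 and RVX208, plus the 3 most correlated genes per member. CSF1, IL34, CD80, SPI1, TYROBP, S100A9, FCN1, AZU1 and the dim or bright markers of other cells were added outside this rule for their roles. SPI1 was added after its values were seen. Same-numbered arrays deviated together at r over 0.1 in 0 of 30 pairs, and differently numbered arrays in 2 of 60. The main fit therefore used no replicate block. A batch not tied to these numbers, or one of few genes, need not show in these correlations. Alternatives covered that block, variance settings, quantile normalization, dim genes, features and fewer arrays.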

Additional observations from a re-analysis of the deposited data

How the results depend on the processing

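The count of the 7 genes called kept within 1.5 times of its value in all alternatives for 6 of the 7 comparisons. When any single array was left out it was 6 with OTX015, 6 with DW71177, 0 with DW71374 and 3 to 4 with RVX208, each against DMSO, and 6 for DW71374 against either of the other compounds. Among genes with a group mean of at least 5, CD36 and CD14 drop out by construction. Of the members left, 5 were called with OTX015, 5 with DW71177 and 4 with RVX208. The shares of all 7102 such genes were 54.9%, 47.1% and 22.6%. For DW71177 against OTX015 the count was 1, and 1 with any single array left out. It became 2 with the trended and robust variance and 2 among brighter genes, and 0 from the 6 arrays alone, where fewer samples set the spread. The replicate block left this count at 1 and changed no call of the 7 genes in any comparison, while calls over all genes in that comparison moved to 107 from 186. Calls in it were 497 over all genes with the trended and robust variance and 593 of the 7102 brighter genes. Over all genes they were 71 to 106 without any single array other than OTX015 replicate 2. For RVX208 against DMSO the 966 calls became 1485 with that variance and 1602 among the 7102 brighter genes. They were 609 from 6 arrays, and 564 to 636 with an array left out. No difference of a called member changed sign. CSF1R with RVX208 lost its call without 4 of the 6 arrays in turn, as given with its values. Quantile normalization and the mean of features changed no call, and the mean of features moved the LYZ difference with OTX015 to -1.23.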

Other observations

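Granule genes of the neutrophil branch, the other product of the progenitors that make monocytes, formed another list. Of 9 measured, 4 fell and 0 rose with OTX015, with DW71177 and with RVX208, where 14.5%, 9.88% and 3.11% of all genes were lower. With each compound these were MPO, PRTN3, CTSG and BPI. CTSG, cathepsin G, fell 2.04-fold with OTX015 (4.56 against 5.59 with DMSO, limma adjusted p = 1.7e-05), 2.11-fold with DW71177 and 1.76-fold with RVX208. BPI, which binds bacterial lipopolysaccharide, fell 1.56-fold with OTX015 and 1.59-fold with DW71177. PRTN3, proteinase 3, was bright and fell 1.15-fold with OTX015 and 1.27-fold with RVX208, while AZU1, azurocidin, was bright and differed by 0.12 with OTX015 and -0.07 with RVX208, neither passing the test.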
